A study of Mus musculus with 92 samples.

Results

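The 38 genes described here act in mitosis and at the passage from G2 into M phase. They were chosen by name, as well-known mitotic genes, but with earlier results of these data known. All 38 were found among the 29956 named genes measured. Every one of the 38 also passed the filter on low values in every fit, so each count of these genes below is out of 38. By what their products do they fall into 8 roles: cyclins and the kinase they drive, other mitotic kinases, the chromosomal passenger complex, the spindle checkpoint with its target, centromere and kinetochore, spindle motors, cytokinesis, and chromosome structure.

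The study asked how far a conditionally immortalized marrow line can stand in for primary marrow as a source of macrophages and of microglia-like cells (MLCs), and used that line to remove Adar1. Bulk RNA sequencing gave 92 mouse libraries in 25 groups. Wild-type (WT) FVB marrow gave progenitors (BM progenitors, depleted of lineage-positive cells, 3 libraries), monocytes isolated with magnetic beads (BM monocytes, 3) and macrophages grown for 7 days in M-CSF (BMD macrophages, 3). ER-Hoxb8 cells are marrow progenitors that carry a retroviral Hoxb8 under estrogen control, which keeps them dividing as progenitors while beta-estradiol and GM-CSF are present. The paper made 3 biologically independent lines for the comparison with marrow. Those cultured here carry heterozygous Cas9 on the FVB background, while the marrow groups are WT. They were taken at day 0 (ER-Hoxb8 progenitors, 3), after 4 days of differentiation (ER-Hoxb8 day 4, 3) and after 7 days in M-CSF (ER-Hoxb8 macrophages, 3). For MLCs, WT donor cells of marrow (BMD MLCs, 6) or ER-Hoxb8 origin (ER-Hoxb8 MLCs, 6) were injected into the brains of newborn Csf1r-/- pups and sorted out weeks later by CD45 and CD11B. These hosts lack microglia but keep their own blood cells. The paper also describes donors that express green fluorescent protein (GFP) and lists GFP in a gate for transplanted cells. Whether every MLC library was sorted with that gate is not stated there. Microglia (9) came from WT mice that were not injected. The labels give no ages, while the paper calls these mice age-matched.

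For the knockouts, an ER-Hoxb8 line with heterozygous Cas9 was transduced with a non-targeting guide (NTC) or with 1 of 2 guides against Adar, the gene for ADAR1, an enzyme that edits adenosine in double-stranded RNA. NTC and knockout cells thus share Hoxb8, Cas9 and the guide vector, and each was a sorted pool of transduced cells, not a clone. There were 3 libraries each of Adar1 KO sgRNA 1 progenitors, NTC progenitors, Adar1 KO sgRNA 1 macrophages and NTC macrophages. The other guide gave 3 Adar1 KO sgRNA 2 progenitor and 5 macrophage libraries, with no NTC library in their normalization set. Another experiment with sgRNA 1, sequenced separately, gave baricitinib with each change of medium for 7 days. Baricitinib blocks JAK1 and JAK2, the kinases through which interferon receptors signal. By the sample titles the doses were 0, 0.0006, 0.016, 0.4 and 10 uM, whereas the treatment text of the labels gives 0.00064 and 0.16 uM for the 2 low doses. The titles are used here. The NTC macrophages had 3, 3, 4, 4 and 3 libraries in order of dose, and the Adar1 KO macrophages had 3, 3, 3, 3 and 4. The labels do not say whether replicates are separate animals, cultures or extractions. The paper calls those of the marrow, ER-Hoxb8 (without a guide), MLC and microglia groups biological replicates. It describes those of the baricitinib experiment as differentiated independently of each other. Each p-value measures the spread between libraries only. KO and NTC libraries come from separate pools of transduced cells, so a p-value between them cannot tell the guide from the pool.

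Levels are log2 CPM (counts scaled to a common library size) as the authors deposited them, after TMM scaling, with no correction for gene length, so that a level is compared between groups for the same gene and never between genes. The lowest value of a library marks the set it was normalized in, and there were 6 such sets. Values are compared only inside a set: marrow and early ER-Hoxb8 cells (12 libraries), macrophages with MLCs and microglia (27), the sgRNA 1 experiment (11), NTC macrophage replicate 2 alone (1), the sgRNA 2 lines (8), and the baricitinib experiment (33). Depth, worked out from the steps between the lowest values of a library, ran from 6.17 to 52.4 M counts (M, mega) with a median of 22.8 M. By set it was 33.2 to 52.4 M, 9.49 to 35.8 M, 22.3 to 34.2 M, 20.1 M, 17.2 to 28.5 M and 6.17 to 32.7 M, in the order just given. A count of 0 allows up to 3 counts, a level between -3.23 and -0.66 on this log2 scale depending on the library, and this floor covers counting error only.

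Several libraries stood apart from their group. ER-Hoxb8 progenitor replicates 1 and 2 had Csf1r, the M-CSF receptor of monocytes and macrophages, at 7.75 and 10.45, against 3.10 in replicate 3. Mpo, a granule gene of myeloid progenitors, was 4.40 and 2.77 in those libraries and 11.20 in replicate 3, with 12.25 to 13.40 in BM progenitors. Summed over 6 progenitor markers, replicates 1, 2 and 3 had 62.2, 26.3 and 2449 CPM. Only replicate 3 was thus high in these progenitor markers, and results on this group are given with and without the other libraries. BMD macrophage replicate 3, with the mitotic genes high, had Mpo at the lowest value of the set, and its library name (wBM) differs from that of the others (Mac). ER-Hoxb8 macrophage replicate 3, with them low, had Csf1r at 8.51 against 10.78 in each of the others. Sall1, a transcription factor of resident microglia, was 8.31 to 8.91 in microglia and -1.26 to 2.66 in MLCs, so that every MLC library lay far below every microglia library. BM monocytes had the Csf1r of their label (8.85 to 9.62) together with high Mpo (11.97 to 12.34). NTC macrophage replicate 2, whose library name calls it a redo, was normalized apart and is left out of the fit. It had 347 CPM over the erythroid list. In the baricitinib experiment, Adar1 KO replicate 2 at 0.4 uM stood apart from the other 2 libraries of its group.

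A cell enters mitosis when the kinase CDK1 is switched on by cyclin B. Aurora and Polo kinases then build the spindle, the kinetochores tie chromosomes to it, and the spindle checkpoint holds back the ubiquitin ligase APC/C until every chromosome is attached, after which cyclin B and securin are destroyed and the cell divides. Most of these genes are transcribed in a wave late in the cell cycle. In resting cells the DREAM complex represses them through a promoter element called CHR, and in dividing cells the activators B-MYB (Mybl2) and FOXM1 take over, often with NF-Y bound to nearby CCAAT boxes. Myeloid progenitors divide quickly, while macrophages and microglia mostly rest and divide in response to M-CSF.

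Because the 38 genes moved together in most comparisons, their promoters were searched for these elements. RefSeq promoter windows of 300 bases on GRCm38.p6 (250 before the start to 50 after it) were matched for 34 genes, in 36 windows. Aurkb, Ccna2, Kif20a and Tpx2 were not matched. A CHR motif, TTTGAA or TTCGAA on either strand, was in 27 of the 34 genes (79.4%), against 19.2% of all 32851 windows and 21.7% of 27025 genes. A CCAAT box, on either strand, was in 28 of 34 (82.4%), against 37.4% of windows and 41.1% of genes. Both motifs were in 24 of 34 (70.6%), against 7.52% of windows and 8.61% of genes. An E2F motif, TTTCCCGC or TTTGGCGC on either strand, was in 0 of 34, against 1.56% of windows, which says only that these letters are not in these windows. The CHR motif nearest the start sat within 50 bases of it in 26 of the 29 windows that held one, at a median position of 8 and a range from -103 to 41, where 1 is the first transcribed base. Of the 34 genes, 20 had at least 2 CCAAT boxes and 10 had at least 3. A match describes letters in a sequence and does not show that a factor binds there. The 4 promoters shown belong to the genes with both motifs whose group means spanned the widest range inside a set. Large differences of these genes in the results below follow in part from that choice. Plk1 encodes the Polo-like kinase that drives entry into and exit from mitosis (chr7:122159185-122159484, plus strand, CHR at 31, CCAAT at -14, range 7.53 log2 units). Kif4 encodes a motor that walks on chromosome arms and the central spindle (chrX:100625815-100626114, plus strand, CHR at 20, CCAAT at -152 and -5, range 7.00). Ube2c encodes the ubiquitin-conjugating enzyme of APC/C (chr2:164769679-164769978, plus strand, CHR at -29, CCAAT at -228, -186, -183, -155, -88 and -57, range 6.94). Kif11 encodes the motor that pushes the spindle poles apart (chr19:37376132-37376431, plus strand, CHR at -19, CCAAT at -45, range 6.82). Each is written 5′ to 3′ in lower case, with CHR and CCAAT motifs of either strand in capitals.
Plk1: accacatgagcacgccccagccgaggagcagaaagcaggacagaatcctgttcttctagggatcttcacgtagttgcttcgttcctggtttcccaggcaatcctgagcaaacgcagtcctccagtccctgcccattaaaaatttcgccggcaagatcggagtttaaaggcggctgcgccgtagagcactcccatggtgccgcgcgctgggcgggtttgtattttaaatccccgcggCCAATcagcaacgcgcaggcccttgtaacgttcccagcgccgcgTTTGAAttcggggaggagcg
Kif4: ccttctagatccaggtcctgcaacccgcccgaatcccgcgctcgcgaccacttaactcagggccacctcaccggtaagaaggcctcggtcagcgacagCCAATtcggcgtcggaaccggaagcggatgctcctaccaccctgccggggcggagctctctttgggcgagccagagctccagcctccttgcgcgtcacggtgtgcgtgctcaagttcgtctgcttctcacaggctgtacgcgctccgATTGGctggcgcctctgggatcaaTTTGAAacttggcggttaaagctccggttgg
Ube2c: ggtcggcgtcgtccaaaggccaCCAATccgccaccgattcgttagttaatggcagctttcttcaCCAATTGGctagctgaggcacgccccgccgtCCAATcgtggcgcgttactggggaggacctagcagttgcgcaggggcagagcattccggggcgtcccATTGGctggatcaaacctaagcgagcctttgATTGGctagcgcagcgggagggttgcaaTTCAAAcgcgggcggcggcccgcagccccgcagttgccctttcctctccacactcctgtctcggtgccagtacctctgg
Kif11: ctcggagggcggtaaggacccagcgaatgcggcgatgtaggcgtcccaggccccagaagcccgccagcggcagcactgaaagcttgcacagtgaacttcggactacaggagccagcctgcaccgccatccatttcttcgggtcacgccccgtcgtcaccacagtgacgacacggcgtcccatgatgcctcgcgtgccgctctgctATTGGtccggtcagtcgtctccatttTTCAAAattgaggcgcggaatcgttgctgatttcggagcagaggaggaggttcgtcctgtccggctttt

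The mean log2 CPM over the 38 genes ordered the groups inside each set. In marrow and early ER-Hoxb8 cells it was 7.19 ± 0.03 (SD, n = 3) in BM progenitors and 7.19 ± 0.13 (n = 3) in BM monocytes, then 6.63 ± 0.64 (n = 3) at ER-Hoxb8 day 4 and 5.35 ± 2.19 (n = 3) in ER-Hoxb8 progenitors. The last of these has so wide a spread that it overlaps day 4. In the set of macrophages and brain cells the order was ER-Hoxb8 macrophages (5.11 ± 1.65, n = 3), BMD macrophages (4.53 ± 2.13, n = 3), ER-Hoxb8 MLCs (4.11 ± 0.99, n = 6), BMD MLCs (2.75 ± 0.81, n = 6) and microglia (1.35 ± 0.70, n = 9). Of neighbours in this order, no pair was apart by more than the larger of their SDs except ER-Hoxb8 and BMD MLCs, and BMD MLCs and microglia. In the sgRNA 1 experiment progenitors lay at 6.92 ± 0.06 (KO, n = 3) and 6.90 ± 0.07 (NTC, n = 3), and macrophages at 3.85 ± 0.06 (KO, n = 3) and 1.54 ± 0.12 (NTC, n = 2). The sgRNA 2 lines lay at 7.01 ± 0.04 (n = 3) as progenitors and 4.53 ± 0.02 (n = 5) as macrophages. NTC macrophage replicate 2, in a set of its own, had a mean of 1.36. In bulk RNA, fewer dividing cells and less of these transcripts per cell cannot be told apart.

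**Figure D1:**
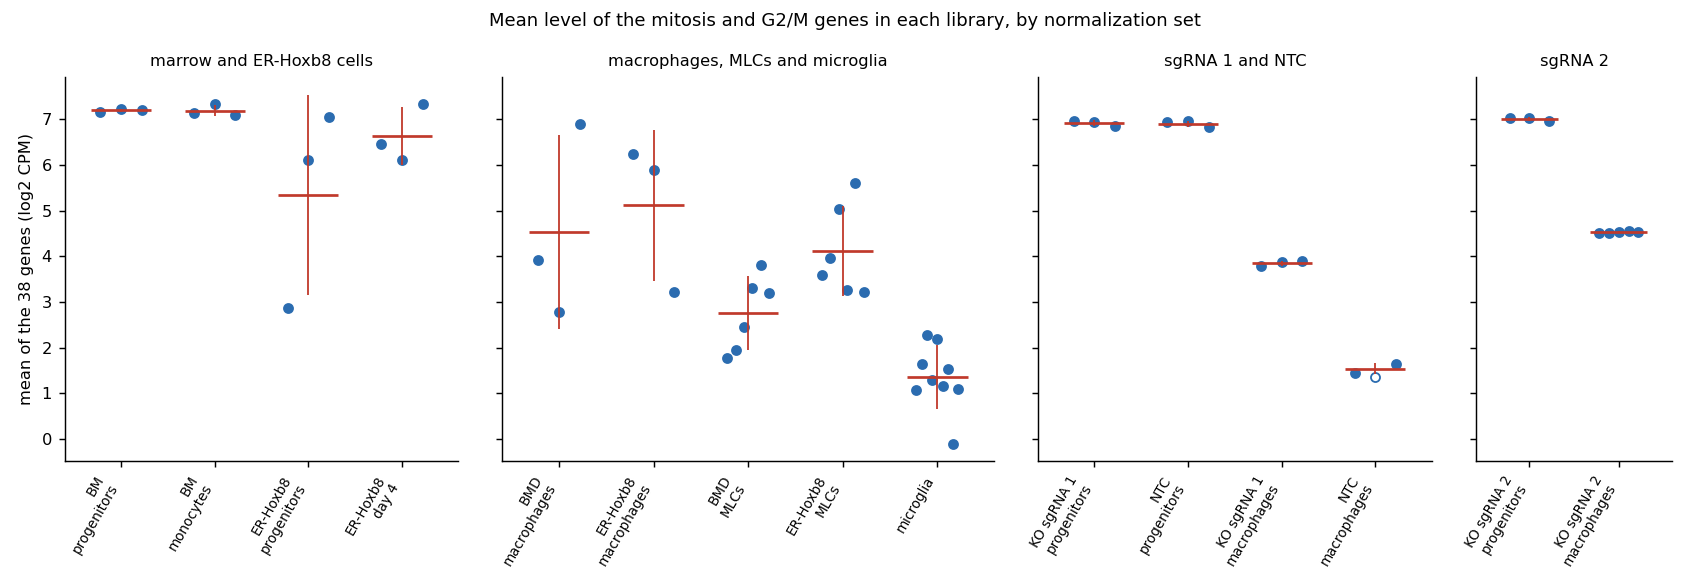
Mean log2 CPM over the 38 mitotic genes in each library (points) for every group, split by normalization set, with the group mean and SD in red and NTC macrophage replicate 2 as an open circle. Levels compare only inside a set, where BM progenitors lie at 7.16 to 7.21 and sgRNA 1 progenitors of both lines at 6.82 to 6.95, whereas ER-Hoxb8 progenitors spread from 2.88 to 7.05.

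BM monocytes were compared with BM progenitors to see how far the genes fall when marrow cells commit. limma called 0 of 38 in either direction, where 6.84% of 12056 genes were called, with 0 of 38 and 3657 of all genes at an unadjusted p below 0.05. A gene is called here when its adjusted p is below 0.05 and its log2 fold change (log2FC) is at least 2 in size. The median log2FC was -0.002 for the 38 genes and -0.09 for all genes, and single genes ran from -0.80 (Nek2, a centrosome kinase) to 0.97 (Racgap1, a GTPase regulator of cytokinesis). Mki67, a coat protein of mitotic chromosomes and the usual marker of cycling cells, was 8.08, 8.60 and 8.44 in BM progenitors. It was 8.50, 8.28 and 8.52 in BM monocytes, so that the groups overlap. Markers of other cells differed between the groups: the erythroid list (8 genes, most abundant Hba-a1) summed to 2272 to 4504 CPM in BM progenitors and 110 to 443 CPM in BM monocytes, with 8 of 8 called lower. The B lineage list (most abundant Cd79a, and Cd79b in monocytes) summed to 260 to 1302 CPM and 65.9 to 93.5 CPM, with 5 of 6 called lower. The macrophage list (most abundant Csf1r) summed to 136 to 223 CPM and 1303 to 1590 CPM, with 2 of 6 called higher. The T and NK list (most abundant Ncr1, and Trbc2 in monocytes) summed to 54.4 to 78.9 CPM and 32.1 to 37.7 CPM, and the progenitor list (most abundant Mpo) to 5415 to 11190 CPM and 4184 to 5288 CPM. Of these 2 lists limma called 0 of 5 and 0 of 6, with 1 and 1 at an unadjusted p below 0.05. Their part in the result was not tested.

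ER-Hoxb8 progenitors were compared with BM progenitors to see how the line differs from the marrow it stands for, where the line, its culture and Cas9 cannot be told apart. limma called 4 of 38 lower and 0 higher, where 15.3% of all genes were called. The 4 were Ccna2 (cyclin A2), Nusap1 (a microtubule bundler), Mki67 and Top2a (the topoisomerase that untangles sister chromatids). In ER-Hoxb8 progenitors Mki67 was 3.54, 7.22 and 6.87 in replicates 1 to 3, against 8.08, 8.60 and 8.44 in BM progenitors. All of its libraries lay below those of BM progenitors, but replicate 1 was far lower than the others. The log2FC of Mki67 was -2.49 ± 0.73 (SE, n = 3 and 3, adjusted p 0.0266). The count moved with single libraries of both groups. It was 0 without ER-Hoxb8 progenitor replicate 1, 7 without replicate 2 and 34 without replicate 3, and 0 without BM progenitor replicate 1, replicate 2 or replicate 3. It was 1 with no filter, 7 after quantile normalization and 0 with only these groups in the fit. With ER-Hoxb8 replicate 3 alone in the group, an alternative chosen after the data were seen, 0 of 38 were called, and the median log2FC was -0.08 in place of -1.78. The lone library is then assumed to vary like the other groups. In that library, which carries progenitor markers, Plk1 was 8.64, against 8.74, 8.30 and 8.16 in BM progenitors, and Cdk1 was 8.34, against 7.68, 7.73 and 7.73. Its Mki67 (6.87) and Ccna2 (4.95, against 5.65, 6.01 and 5.61) were lower than in every BM progenitor library, so the genes went different ways. Markers of other cells were called lower in ER-Hoxb8 progenitors for 8 of 8 erythroid, 6 of 6 neutrophil, 6 of 6 B lineage and 5 of 5 T and NK genes. The erythroid list (most abundant Hba-a1) summed to 3.46 to 4.15 CPM, against 2272 to 4504 CPM in BM progenitors, and the neutrophil list (most abundant Elane) to 32.4 to 419 CPM, against 1677 to 14450 CPM. The B lineage list (most abundant Cd79b, and Cd79a in marrow) summed to 2.31 to 21.6 CPM, against 260 to 1302 CPM, and the T and NK list (most abundant Klrb1c, and Ncr1 in marrow) to 0.0474 to 0.636 CPM, against 54.4 to 78.9 CPM, with Cd3e at the lowest value in every ER-Hoxb8 progenitor library. The macrophage list (most abundant Cd68, and Csf1r in marrow) went the other way, at 458 to 4750 CPM against 136 to 223 CPM. It had 5 of 6 genes at an unadjusted p below 0.05. The progenitor list (most abundant Mpo) was lower, at 26.3 to 2449 CPM against 5415 to 11190 CPM, with 6 of 6 below that p. Of all genes, 4565 of 12056 passed it. The part of these cells in the result was not tested.

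Day 4 of differentiation was compared with day 0. limma called 0 of 38, with 0 of 38 at an unadjusted p below 0.05, and 0% of all genes, with 1129 of 12056 genes at an unadjusted p below 0.05. The median log2FC of the 38 was 1.31, which turned to -0.42 once ER-Hoxb8 progenitor replicates 1 and 2 were left out. In day 4 replicates 1, 2 and 3, Mki67 was 7.24, 7.20 and 7.87, near the 2 higher progenitor libraries. The direction of the median thus depends on those day 0 libraries. Cdk1, the kinase at the centre of mitotic entry, was 7.16, 6.77 and 8.19 at day 4 and 5.05, 6.74 and 8.34 at day 0, so that these groups overlap as well.

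ER-Hoxb8 macrophages were compared with BMD macrophages, their primary counterpart without Cas9. limma called 0 of 38, where 1.85% of 12518 genes were called, with 0 of 38 and 1071 of all genes at an unadjusted p below 0.05. Both groups were split inside. The mean of the 38 genes was 3.92, 2.77 and 6.90 in BMD macrophages and 6.23, 5.89 and 3.22 in ER-Hoxb8 macrophages. In each group 1 library lay on the other side, and the groups overlap over almost their whole range. Kif11, the pole-separating motor, was 4.17, 2.64 and 7.65 in BMD macrophages and 6.27, 6.06 and 3.00 in ER-Hoxb8 macrophages. Leaving out replicate 3 of both groups, an alternative chosen after the data were seen, moved the median log2FC from 0.60 to 2.68, still with 0 of 38 called. Leaving out BMD macrophage replicate 2 turned it to -0.38, so its direction depends on that library. It was 0.28 and 1.72 without BMD macrophage replicates 1 and 3, and 0.01, 0.11 and 1.48 without ER-Hoxb8 macrophage replicates 1, 2 and 3. What set those libraries apart was not tested.

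MLCs recovered from the brain were compared with macrophages grown from marrow or from ER-Hoxb8 cells. In BMD MLCs against BMD macrophages limma called 7 of 38 lower and 0 higher, where 15.9% of all genes were called, so the share of the 38 (7 of 38) was close to that of all genes. The 7 were Ccnb1 (cyclin B1), Cdk1, Cdca3 (which helps destroy WEE1), Aurka (the spindle-pole kinase), Ttk (the kinase that starts the checkpoint), Kif20a and Kif23 (motors of the midzone where the cell is cleaved). Kif20a ran from -3.62 to 0.62 in BMD MLCs with a median of 0.05, and was 1.84, 1.63 and 6.78 in BMD macrophages. The groups did not overlap, yet replicate 3 of the macrophages was far above the others. The log2FC of Kif20a was -4.04 ± 1.44 (SE, n = 6 and 3, adjusted p 0.0340). The count was 16 without BMD macrophage replicate 2 and 0 without replicate 3, and 4, 3 and 4 without BMD MLC replicates 1, 2 and 3. It was 3 with no filter and 12 on log2 of CPM plus 1. The median log2FC of the 38 was -1.65, against -0.01 for all genes, and Cks2, a small subunit of cyclin-dependent kinases, had the highest at 0.38. The neutrophil list (6 genes, most abundant Ngp) was higher in BMD MLCs for 5 of 6 genes. It summed to 4433 to 32980 CPM in BMD MLCs and 3.21 to 20.5 CPM in BMD macrophages. The erythroid list (most abundant Hba-a2, and Hba-a1 in macrophages) was called higher for 4 of 5 genes tested (27.1 to 866 CPM against 0.674 to 4.16 CPM), the T and NK list (most abundant Cd3g) for 2 of 5 (3.83 to 7.93 CPM against 0.0475 to 0.596 CPM) and the B lineage list (most abundant Cd79b) for 1 of 3 tested (median 85.2 CPM against 5.99 CPM). Of 11 interferon-induced genes (most abundant Oas1a) 2 were called higher, with 107 to 222 CPM against 89.6 to 200 CPM. In all comparisons with MLCs these 11 are the interferon list of the knockout comparisons (12 genes) without its transcription factor. The macrophage list (most abundant Csf1r, and Cd68 in macrophages) was lower, at 4103 to 6512 CPM against 6654 to 8932 CPM. It had 3 of 6 genes at an unadjusted p below 0.05 (5222 of 12518 genes). The neuron list (most abundant Snap25, and Stmn2 in macrophages) had 0.637 to 6.20 CPM against 0 to 0.210 CPM. Hbb-bt, Ncr1, Syt1 and Tubb3 were at the lowest value in every BMD macrophage library, and Igll1 in every BMD MLC library. The part of these markers in the result was not tested.

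In ER-Hoxb8 MLCs against ER-Hoxb8 macrophages limma called 0 of 38, where 19.3% of all genes were called, with 2 of 38 and 5658 of 12518 genes at an unadjusted p below 0.05. The median log2FC was -1.13 for the 38 and -0.15 for all genes. Plk1 had the lowest log2FC, -3.34 ± 1.36 (SE, n = 6 and 3, adjusted p 0.0579). Its level ran from -2.87 to 5.35 in ER-Hoxb8 MLCs and was 7.16, 6.85 and 4.25 in ER-Hoxb8 macrophages, so the groups overlap. Top2a had the highest log2FC, 0.62. The count was 3 without ER-Hoxb8 macrophage replicate 3, 1 without ER-Hoxb8 MLC replicate 3 and 1 without ER-Hoxb8 MLC replicate 5. The library names divide ER-Hoxb8 MLCs into GFPHox (replicates 1 to 3) and WTHox (replicates 4 to 6). Within these, 0 and 1 of 38 were called, and 1 was called on log2 of CPM plus 1 or with a replicate block. The MLC donors are labeled WT and the macrophages Cas9. Markers of other cells were called higher in the MLCs for 5 of 6 neutrophil, 4 of 5 T and NK and 4 of 5 erythroid genes tested. The neutrophil list (most abundant Ngp, and S100a8 in macrophages) summed to 237 to 41110 CPM in ER-Hoxb8 MLCs and 15.1 to 46.5 CPM in ER-Hoxb8 macrophages. The T and NK list (most abundant Cd3g) summed to 5.45 to 273 CPM and 0.188 to 0.445 CPM, and the erythroid list (most abundant Hba-a2, and Hba-a1 in macrophages) to 231 to 7700 CPM and 4.00 to 7.70 CPM. The B lineage list (most abundant Cd79b) had 9.77 to 112 CPM and 1.73 to 17.4 CPM, which overlap. Of its genes tested, 3 of 3 had an unadjusted p below 0.05. Of 11 interferon-induced genes (most abundant Ifit2, and Oas1a in macrophages) 10 were called higher, with 1388 to 4752 CPM against 169 to 264 CPM. Further lists lay apart too. Sox11, a marker of neural precursors, was called higher in ER-Hoxb8 MLCs. The list of proliferating neural precursors (most abundant Sox11) summed to 1.02 to 11.4 CPM there and 0.136 to 0.354 CPM in ER-Hoxb8 macrophages. The neuron list (most abundant Stmn2, 1 of 2 tested called higher) summed to 0.393 to 14.8 CPM in ER-Hoxb8 MLCs and 0.0246 to 0.159 CPM in ER-Hoxb8 macrophages. The astrocyte list (most abundant Slc1a3, and Aldh1l1 in macrophages) summed to 22.4 to 54.7 CPM and 1.08 to 17.2 CPM, with 3 of 4 genes tested called higher and 1 lower. The oligodendrocyte list (most abundant Mbp) had 47.1 to 159 CPM and 18.4 to 37.3 CPM and the endothelial list (most abundant Flt1, and Pecam1 in macrophages) 44.4 to 90.6 CPM and 6.98 to 29.9 CPM, each with 1 of 2 tested called higher. The macrophage list (most abundant Cd68) was lower, at 1942 to 5941 CPM and 6631 to 9268 CPM, with 1 of 6 called higher and 1 lower. Cd3e, Hbb-bt, Snap25, Syt1, Tubb3, Gfap, Aqp4, Mog, Olig1, Olig2, Cldn5 and Cdh5 were at the lowest value in every ER-Hoxb8 macrophage library, and Klf1 and Cdh5 in every ER-Hoxb8 MLC library. Their part in the result was not tested.

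MLCs were next compared with the microglia whose place they take. In BMD MLCs limma called 7 of 38 higher and 0 lower, where 10.7% of all genes were called. The 7 were Aurkb (the kinase of the chromosomal passenger complex), Cdc20 (the APC/C activator that the checkpoint holds), Cenpa (the histone that marks centromeres), Nusap1, Kif23, Anln (a scaffold of the cleavage furrow) and Mki67. Anln ran from 2.80 to 4.75 in BMD MLCs with a median of 4.15, and from -2.83 to 1.54 in microglia with a median of 0.83. The groups did not overlap. Its log2FC was 3.80 ± 0.74 (SE, n = 6 and 9, adjusted p 0.000402). Mki67 ran from 3.41 to 5.69 in BMD MLCs and from -2.33 to 3.81 in microglia, with a slight overlap, and its log2FC was 2.90 ± 0.74 (adjusted p 0.0050). Cdk1 was much the same in both, with a log2FC of -0.08 (adjusted p 0.933). The count was 4 without BMD MLC replicate 5 and 4 without microglia replicate 8, in which 9 of the 38 genes were at the lowest value and 16 at 3 counts or fewer. It was 3 without both microglia libraries named YSWT (replicates 8 and 9), 3 with a replicate block and 2 on log2 of CPM plus 1. The neutrophil list was higher in BMD MLCs for 5 of 6 genes (4433 to 32980 CPM, against 407 to 5875 CPM in microglia). The T and NK list was called higher for 2 of 5 genes (3.83 to 7.93 CPM against 0.259 to 7.01 CPM), the erythroid list lower for 2 of 5 tested (27.1 to 866 CPM against 287 to 7767 CPM), and of 11 interferon-induced genes 4 were called higher (107 to 222 CPM against 35.4 to 62.5 CPM). The astrocyte list (most abundant Slc1a3) summed to 10.3 to 16.9 CPM in BMD MLCs and 167 to 665 CPM in microglia, with 1 of 4 genes tested called higher and 1 lower and Aqp4 at the lowest value in every library of both. The endothelial list (most abundant Pecam1) summed to 10.6 to 28.2 CPM and 32.0 to 68.8 CPM. The part of these markers in the result was not tested.

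ER-Hoxb8 MLCs were compared with the same microglia. limma called 28 of 38 higher and 0 lower, where 16.3% of all genes were called. Across the 38 the median log2FC was 2.81, against -0.10 for all genes, and all were above 0, from 0.76 (Cks2) to 4.51 (Mki67). Mki67 ran from 5.24 to 8.03 in ER-Hoxb8 MLCs with a median of 6.17, and from -2.33 to 3.81 in microglia with a median of 2.11. Every ER-Hoxb8 MLC library lay above every microglia library. Its log2FC was 4.51 ± 0.74 (SE, n = 6 and 9, adjusted p 2.4e-05). Ndc80, which carries the kinetochore's grip on microtubules, ran from 3.41 to 6.20 in ER-Hoxb8 MLCs with a median of 4.75 and from -3.62 to 2.31 in microglia with a median of 0.93. These groups did not overlap either. Its log2FC was 4.12 ± 0.81 (adjusted p 0.00023), and that of Anln was 4.05 ± 0.74 (adjusted p 0.00010). By role, limma called 3 of 3 genes of the chromosomal passenger complex, 6 of 6 of centromere and kinetochore, 2 of 2 of chromosome structure, 4 of 6 cyclins and CDK genes, 2 of 3 kinases, 3 of 5 of checkpoint and APC/C, 4 of 7 spindle genes and 4 of 6 of cytokinesis. The genes not called were Cdk1, Cks2, Nek2, Bub1, Bub1b, Kif2c, Kif4, Ckap2, Ect2 and Racgap1. Within the MLC series the counts were close to this: 25 of 38 were called with GFPHox libraries alone and 25 with WTHox libraries alone, and 24 without the 2 microglia libraries named YSWT (replicates 8 and 9). Whether ER-Hoxb8 MLCs differ from BMD MLCs was not tested. The T and NK list (most abundant Cd3g) was called higher in ER-Hoxb8 MLCs for 4 of 5 genes, with 5.45 to 273 CPM against 0.259 to 7.01 CPM in microglia. The neutrophil list (most abundant Ngp) summed to 237 to 41110 CPM against 407 to 5875 CPM in microglia. For the erythroid list (most abundant Hba-a2) it was 231 to 7700 CPM against 287 to 7767 CPM. Both overlap, and limma gave 0 of 6 and 0 of 5 genes tested an unadjusted p below 0.05, against 5330 of 12518 genes. Of the B lineage list (most abundant Cd79b) 3 of 6 genes were tested, with 1 called higher and 1 lower, and it summed to 9.77 to 112 CPM against 61.0 to 128 CPM. Of 11 interferon-induced genes (most abundant Ifit2) 11 were called higher, with 1388 to 4752 CPM against 35.4 to 62.5 CPM and a median log2FC of 5.82. The astrocyte list (most abundant Slc1a3) lay lower, at 22.4 to 54.7 CPM against 167 to 665 CPM, with 1 of 4 genes tested called higher and 1 lower and Aqp4 at the lowest value in every microglia library. The part of these markers in the result was not tested.

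**Figure D2:**
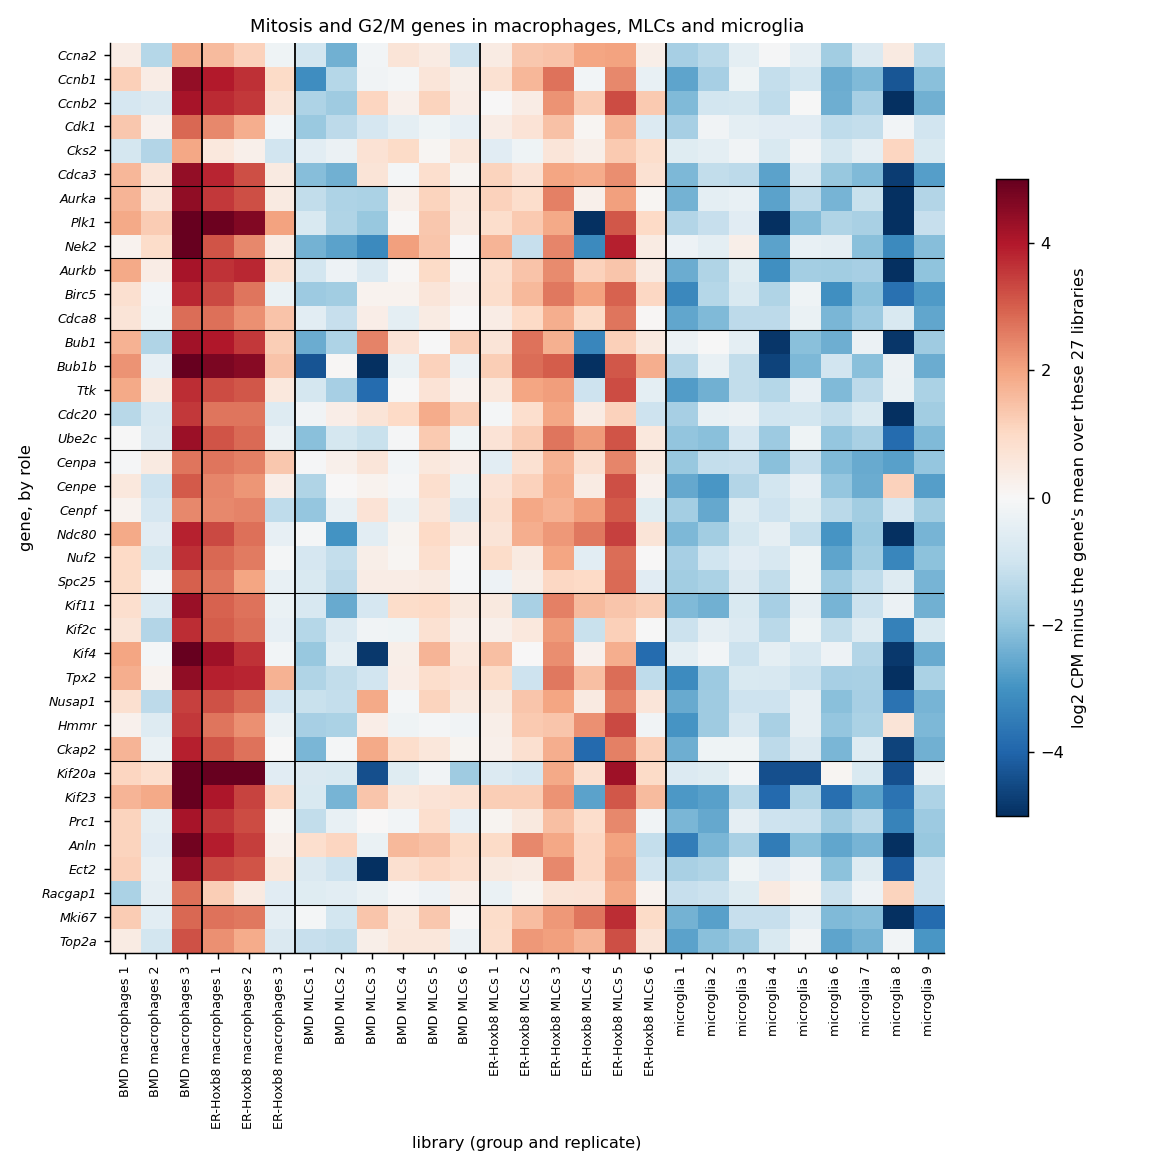
Heat map of the 38 mitotic genes (top to bottom, by role) in the 27 libraries of macrophages, MLCs and microglia (columns), where color is log2 CPM minus the mean of the gene over the 27 libraries. BMD macrophage replicate 3 and ER-Hoxb8 macrophage replicates 1 and 2 are high nearly throughout, microglia are low, and ER-Hoxb8 MLCs lie above microglia in the mean of every library (3.22 to 5.60 against -0.10 to 2.28).

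Before the knockout comparisons, Adar itself was read. Its mRNA was 7.04 in Adar1 KO sgRNA 1 macrophages (6.96, 7.15 and 7.01) and 5.70 in NTC macrophages (5.73 and 5.67), a log2FC of 1.34 (adjusted p 0.00098). In progenitors it was 4.28 and 3.97, a log2FC of 0.31 (adjusted p 0.924). Adar is itself an interferon-induced gene, and a guide that breaks the reading frame need not lower the mRNA, so that these levels do not measure loss of the protein. In the baricitinib experiment Adar was higher in KO than in NTC at 0 uM (log2FC 1.85, adjusted p 0.0051) and lower at 10 uM (log2FC -1.36, adjusted p 0.0146). The interferon list summed to 5973 to 12650 CPM in Adar1 KO sgRNA 1 macrophages (most abundant Ifit2) and to 376 and 333 CPM in NTC macrophage replicates 1 and 3, and limma called 12 of 12 of its genes higher.

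Progenitors of the KO and NTC lines were compared to see whether the lines differ before they differentiate. In Adar1 KO sgRNA 1 against NTC progenitors limma called 0 of 38, with 0 of 38 at an unadjusted p below 0.05, where 0.254% of 11008 genes were called and 725 genes had an unadjusted p below 0.05. The median log2FC was 0.003, and the 38 genes ran from -0.15 (Spc25, a partner of NDC80) to 0.26 (Anln). Plk1 was 7.84, 7.92 and 7.82 in KO and 7.73, 7.72 and 7.67 in NTC progenitors. Its KO libraries lay just above the NTC ones, by a log2FC of 0.16 ± 0.19 (SE, n = 3 and 3, adjusted p 0.990). Kif4 was 6.09, 5.92 and 5.90 in KO and 6.24, 5.84 and 5.82 in NTC progenitors, and these overlap. Outside the 38, some cell cycle genes did differ between these progenitors. Of 13 tested regulators of G1, limma gave 4 an unadjusted p below 0.05. The inhibitor Cdkn1a was lower in KO (log2FC -1.13, adjusted p 0.0026) and the inhibitor Cdkn2a was higher (log2FC 1.305, adjusted p 0.031). Neither inhibitor overlapped between the lines, and neither reached the log2FC limit of 2. Their part in later differences between the lines was not tested.

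Differentiation into macrophages was followed in each line. In NTC macrophages against NTC progenitors limma called 38 of 38 lower, where 23.5% of all genes were called. Their median log2FC was -5.40, against -0.08 for all genes, a median fold of 42.1. Plk1 was 7.73, 7.72 and 7.67 in NTC progenitors and -0.13 and 0.79 in NTC macrophage replicates 1 and 3. In replicate 2, normalized apart, it was 1.13. Its log2FC was -7.38 ± 0.21 (SE, n = 2 and 3, adjusted p 1.4e-10). Ube2c was 7.88, 8.15 and 8.13 in NTC progenitors and 1.20 and 1.27 in NTC macrophages, a log2FC of -6.82 ± 0.15 (adjusted p 2.5e-11). Cenpa fell least, from 7.06, 7.54 and 7.34 to 4.41 and 4.73, with a log2FC of -2.74 ± 0.15 (adjusted p 2.3e-08). By role the median log2FC ran from -4.26 in the chromosomal passenger complex to -6.04 in the spindle motors. In Adar1 KO sgRNA 1 macrophages against their own progenitors limma also called 38 of 38 lower, where 21.6% of all genes were called. Here the median log2FC was -2.95, a median fold of 7.73. Kif20a was 6.78, 6.53 and 6.22 in KO progenitors and 0.90, 2.54 and 2.31 in KO macrophages. It fell most, with a log2FC of -4.59 ± 0.36 (SE, n = 3 and 3, adjusted p 3.3e-07), while Ndc80 fell least, with -2.18 ± 0.14 (adjusted p 8.0e-08). In both lines all 38 genes fell on differentiation, in the KO line by a smaller median. Marker lists were called too. In NTC macrophages against progenitors limma called 6 of 6 neutrophil genes (most abundant Elane, and S100a8 in macrophages), 5 of 5 erythroid genes tested (most abundant Hbb-bs), 4 of 4 neuron genes tested (most abundant Snap25) and 4 of 5 progenitor genes tested lower, and 6 of 6 macrophage genes higher. In the KO line these were 5 of 6, 5 of 5, 4 of 4, 4 of 5 and 6 of 6, with 1 progenitor gene called higher. In NTC the neutrophil list summed to 887 to 1044 CPM in progenitors and to 15.3 and 10.8 CPM in macrophage replicates 1 and 3, and the erythroid list to 479 to 763 CPM and to 0.267 and 0.410 CPM. Their part in the result was not tested.

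In Adar1 KO sgRNA 1 macrophages against NTC macrophages limma called 27 of 38 higher and 0 lower, where 4.02% of all genes were called, 357 higher and 85 lower. For the 38 genes the median log2FC was 2.45, against 0.05 for all genes. Kif4 was 2.84, 3.03 and 3.12 in KO macrophages and -1.24 and -0.82 in NTC macrophages, with -2.60 in NTC replicate 2 in its own set. Every KO library of Kif4 was above every NTC library, and its log2FC was 4.02 ± 0.19 (SE, n = 3 and 2, adjusted p 1.7e-07). Plk1 was 3.86, 3.89 and 4.08 in KO macrophages against -0.13 and 0.79, with a log2FC of 3.61 ± 0.21 (adjusted p 5.7e-07). Kif11 was 4.28, 4.40 and 4.45 against 0.49 and 1.31, with a log2FC of 3.48 ± 0.20 (adjusted p 6.0e-07). Ube2c was 4.21, 4.52 and 4.62 against 1.20 and 1.27. None of these genes overlapped between the lines. Their promoters are printed above because of the wide range of their group means, so this separation follows in part from that choice. Cenpa went the other way: it was 4.09, 4.13 and 4.19 in KO and 4.41 and 4.73 in NTC macrophages, lower without overlap, but its log2FC of -0.43 ± 0.15 missed the threshold (adjusted p 0.0637). By role limma called 7 of 7 spindle genes, 5 of 5 of checkpoint and APC/C, 5 of 6 of centromere and kinetochore, 2 of 2 of chromosome structure, 2 of 3 kinases, 3 of 6 of cytokinesis, 2 of 6 cyclins and CDK genes and 1 of 3 of the chromosomal passenger complex. The genes not called were Ccna2, Cdk1, Cks2, Cdca3, Nek2, Aurkb, Cdca8, Cenpa, Kif20a, Ect2 and Racgap1. Of these, all but Cenpa and Racgap1 were higher with an adjusted p below 0.05. Racgap1 was 1.87, 2.19 and 2.29 in KO and 1.44 and 2.41 in NTC macrophages, which overlap (log2FC 0.20, adjusted p 0.706). With NTC macrophage replicate 2 put into the fit, 28 of 38 were called. The neutrophil list (most abundant S100a8) summed to 68.5 to 82.0 CPM in KO and to 15.3 and 10.8 CPM in NTC macrophages, with 1 of 6 genes called higher, S100a9 at the lowest value in every KO library and Ngp in every NTC library. The macrophage list (6 genes, most abundant Cd68 in KO and Csf1r in NTC) summed to 5502 to 6241 CPM in KO and to 9446 and 8335 CPM in NTC macrophages, with 0 called by limma and 4 of 6 at an unadjusted p below 0.05. The endothelial list (4 genes, most abundant Flt1) summed to 101 to 141 CPM in KO and to 37.2 and 48.1 CPM in NTC macrophages, with Cldn5 at the lowest value in every library of both. The part of these markers in the result was not tested.

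The difference between the lines in their change on differentiation was tested directly. limma called 28 of 38 above 0 and 0 below, where 4.19% of all genes were called. The median of this difference was 2.45, against 0.08 for all genes. It was largest for Kif4 (4.02 ± 0.25, SE, adjusted p 4.3e-06), Plk1 (3.45 ± 0.28, adjusted p 1.6e-05) and Ccnb2, cyclin B2 (3.40 ± 0.21, adjusted p 4.3e-06). It was smallest for Cenpa (-0.44 ± 0.20, adjusted p 0.180), Racgap1 (0.07 ± 0.43, adjusted p 0.932) and Cks2 (0.84 ± 0.17, adjusted p 0.0065). This test shares the macrophage libraries with the comparison of KO and NTC macrophages. With NTC macrophage replicate 2 in the fit, it called 27 of 38. Ccnb2 itself was 4.46, 4.45 and 4.61 in KO macrophages and 0.82 and 1.38 in NTC macrophages, and 7.42 to 7.66 in all 6 progenitor libraries. For this gene the lines overlap as progenitors and lie apart as macrophages.

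The lines made with the other guide had no NTC library in their set, so only their differentiation was tested. In Adar1 KO sgRNA 2 macrophages against progenitors limma called 30 of 38 lower and 0 higher, where 19.3% of 10698 genes were called. All 38 had an unadjusted p below 0.05, as did 8802 of 10698 genes, and all 38 had an adjusted p below 0.05. The median log2FC was -2.34, against -0.03 for all genes. Plk1 was 8.24, 8.19 and 8.12 in sgRNA 2 progenitors and 4.40, 4.45, 4.34, 4.61 and 4.53 in sgRNA 2 macrophages. The groups lay far apart and each was tight, and Plk1 fell most, with a log2FC of -3.72 ± 0.07 (SE, n = 5 and 3, adjusted p 9.3e-12). Mki67 was 6.39, 6.70 and 6.51 in progenitors and 5.19, 4.83, 5.25, 5.26 and 5.06 in macrophages. It was lower without overlap, but its log2FC of -1.42 ± 0.11 (adjusted p 5.8e-07) was short of 2 in size. The genes not called were Ndc80, Spc25, Nusap1, Ckap2, Kif23, Prc1, Mki67 and Top2a. The interferon list summed to 7420 to 8218 CPM in sgRNA 2 macrophages. The neutrophil list summed to 187 to 229 CPM in progenitors and 18.3 to 23.3 CPM in macrophages, with 1 of 3 genes tested called lower, and the progenitor list to 2203 to 2678 CPM and 5.70 to 7.19 CPM, with 3 of 4 called lower. Their part in the result was not tested. Levels of sgRNA 2 and sgRNA 1 lines come from different sets and were not compared.

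In the baricitinib experiment without drug, the KO macrophages lay below NTC. In Adar1 KO against NTC at 0 uM limma called 5 of 38 lower and 0 higher, where 3.87% of 11152 genes were called. The 5 were Aurkb, Cenpf (a large kinetochore protein), Kif11, Nusap1 and Mki67. Over all 38 genes the median log2FC was -1.77, against -0.02 for all genes. At an unadjusted p below 0.05 there were 37 of 38 and 4091 of all 11152 genes, and 34 of 38 had an adjusted p below 0.05. In all 38 genes every KO library lay below every NTC library, which held for 21.6% of all genes. Mki67 was 3.83, 4.67 and 4.52 in KO and 6.44, 6.88 and 6.57 in NTC macrophages. Its groups were well apart, with a log2FC of -2.29 ± 0.37 (SE, n = 3 and 3, adjusted p 4.2e-05). Kif11 was 3.46, 3.79 and 4.22 in KO and 5.80, 6.25 and 5.99 in NTC macrophages, with a log2FC of -2.19 ± 0.38 (adjusted p 8.8e-05). Cdk1 was 5.44, 5.48 and 5.67 in KO and 5.76, 6.35 and 6.18 in NTC macrophages, the smallest difference (log2FC -0.57, adjusted p 0.118). Many genes lay close to the limit of 2, and the count moved with single libraries. It was 13 without NTC replicate 1, 3 without NTC replicate 2, 2 without KO replicate 1, 8 without KO replicate 2 and 15 without KO replicate 3. At a limit of 1 it was 33, with no share of all genes at that limit to set it against. The interferon list went up in the KO at the same time, with 12 of 12 genes called higher and a median log2FC of 4.66. The macrophage list (most abundant Cd68) summed to 5324 to 5485 CPM in KO and 5670 to 5793 CPM in NTC, with 0 of 6 called by limma and 4 at an unadjusted p below 0.05. The endothelial list (most abundant Flt1) summed to 70.4 to 88.3 CPM and 51.3 to 55.7 CPM, and the neutrophil list (most abundant S100a8) to 54.1 to 67.6 CPM and 74.9 to 95.4 CPM. Their part in the result was not tested.

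**Figure D3:**
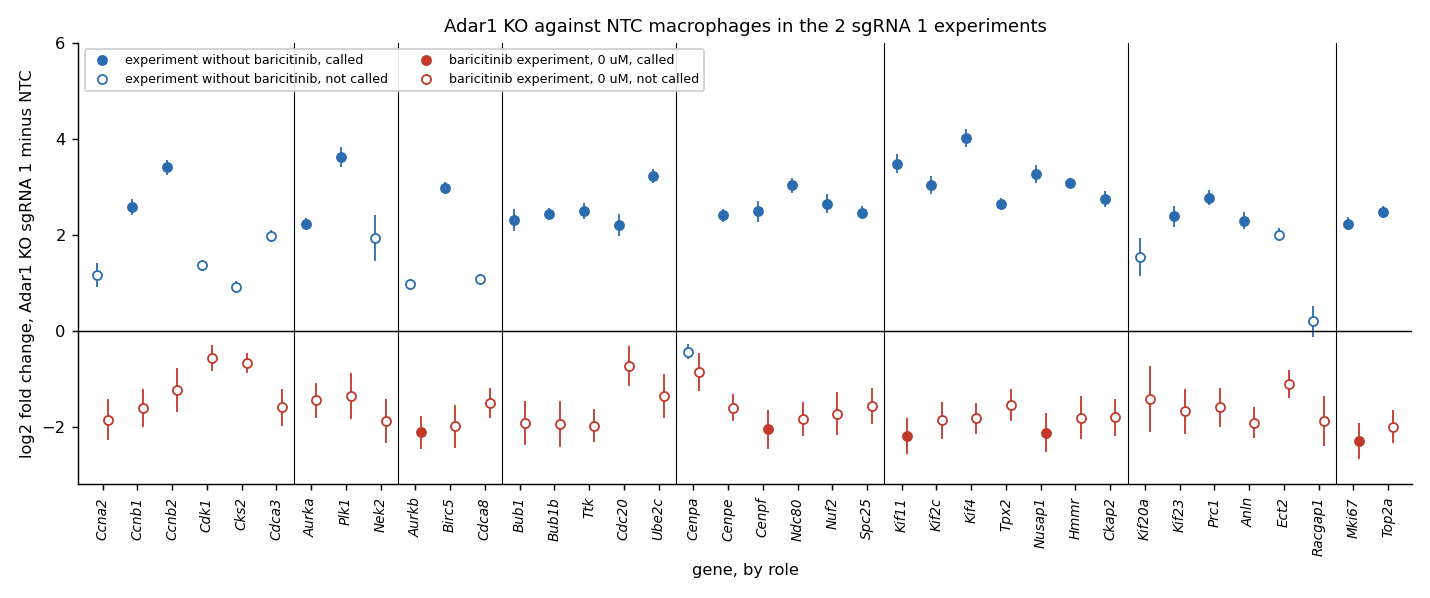
Log2 fold change of each of the 38 genes, Adar1 KO sgRNA 1 minus NTC macrophages, in the experiment without baricitinib and in the 0 uM group of the baricitinib experiment, with SE bars and filled points for called genes. In the former 37 of 38 genes lie above 0 and in the latter 38 of 38 lie below 0.

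Set side by side, the 2 sgRNA 1 experiments went opposite ways. KO minus NTC macrophages in the mean of the 38 genes was above 0 in the experiment without baricitinib and -1.64 at 0 uM in the baricitinib experiment. In each experiment the KO and NTC libraries did not overlap in this mean: 3.78, 3.87 and 3.89 against 1.46 and 1.63 in the former, and 3.29, 3.56 and 3.81 against 4.94, 5.44 and 5.22 in the latter. Among single genes, Kif11 had a log2FC of 3.48 in the former and -2.19 in the latter, and Nusap1 had 3.27 and -2.12. Cenpa, the only gene below 0 in the former (-0.43), was also below 0 in the latter (-0.86). In both experiments 12 of 12 interferon genes were called higher in KO. The experiments differ in provider, depth and normalization set, so their levels were not compared and the difference between them was not tested. Which of the lines differed between experiments cannot be told apart from these values.

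Dose was then followed. In NTC macrophages the mean of the 38 genes was 5.20 ± 0.25 (SD, n = 3) at 0 uM, 5.94 ± 0.30 (n = 3) at 0.0006 uM, 6.00 ± 0.29 (n = 4) at 0.016 uM, 5.91 ± 0.28 (n = 4) at 0.4 uM and 6.53 ± 0.42 (n = 3) at 10 uM. In this mean the NTC libraries at 0 uM lay below those of every other dose, and the group mean was highest at 10 uM. In Adar1 KO macrophages the mean was 3.65 ± 0.12 (n = 3) at 0.0006 uM and 3.66 ± 0.17 (n = 3) at 0.016 uM, close to the 3.29, 3.56 and 3.81 at 0 uM. At 0.4 uM the KO libraries split: replicates 1 and 3 had 5.91 and 5.70, near NTC, and replicate 2 had 3.46, within the range of untreated KO in this mean. At 10 uM all KO libraries were high, at 6.94, 7.31, 7.27 and 7.15. KO minus NTC was -1.64, -2.29, -2.34, -0.88 and 0.64 in order of dose. Every KO library lay below every NTC library in 38 of 38 genes at 0.0006 uM (22.3% of all genes), in 38 of 38 at 0.016 uM (20.4%) and in 1 of 38 at 0.4 uM (10.2%). At 10 uM every KO library lay above every NTC library in 20 of 38 genes (25.6% of all genes) and below in 0. The doses between 0 and 10 uM were not tested gene by gene. In KO macrophages Mki67 was 7.23 and 6.98 in replicates 1 and 3 at 0.4 uM and 4.65 in replicate 2. The interferon list went the other way in these libraries, with a mean of 10.71 in replicate 2 and 1.22 and 3.06 in replicates 1 and 3. Replicate 2 thus lay above every untreated KO library in the interferon list, whose mean was 7.37 to 7.44 in KO at 0 uM, 7.22 to 7.73 at 0.0006 uM and 7.46 to 7.76 at 0.016 uM, and 0.74 to 0.94 at 10 uM. In NTC it was 2.36 to 2.48 at 0 uM and 0.50 to 0.85 at 10 uM, and its part in the result was not tested.

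**Figure D4:**
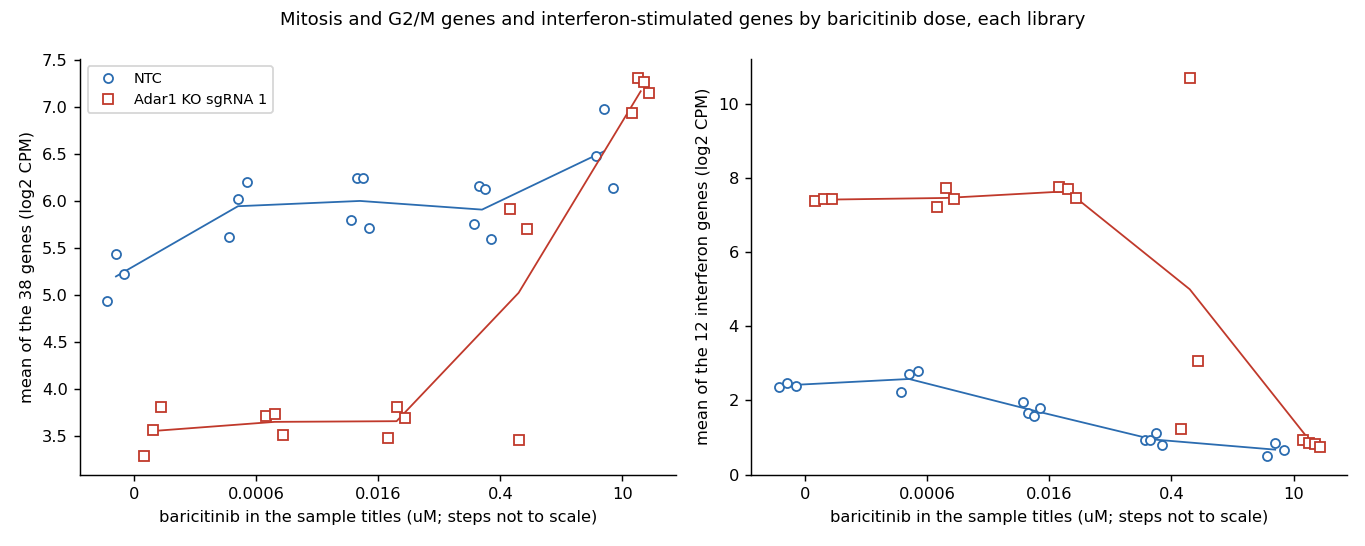
Mean log2 CPM of the 38 mitotic genes and of the interferon list by baricitinib dose (as titled, in uM) in NTC and Adar1 KO macrophages, with each library as a point and lines through the group means. Mitotic genes of the KO have means of 3.65 and 3.66 at the 2 low doses, split at 0.4 uM and reach 6.94 to 7.31 at 10 uM, while the interferon list of the KO goes from 7.37 to 7.44 without drug to 0.74 to 0.94 at 10 uM.

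At 10 uM against 0 uM these genes rose in the KO macrophages. limma called 37 of 38 higher and 0 lower, where 14.7% of all genes were called, 614 higher and 1021 lower. Over all 38 genes the median log2FC was 3.67, a median fold of 12.7, against 0.05 for all genes. Ccna2, the cyclin of S phase and G2, was 1.31, 1.17 and 1.05 at 0 uM and 5.70, 6.78, 6.10 and 5.92 at 10 uM. The doses lay far apart in every library, and the log2FC was 4.95 ± 0.40 (SE, n = 4 and 3, adjusted p 2.7e-11). Mki67 was 3.83, 4.67 and 4.52 at 0 uM and 8.69, 9.35, 9.22 and 8.90 at 10 uM, with a log2FC of 4.70 ± 0.35 (adjusted p 5.2e-12). Cenpf was 2.49, 2.94 and 3.03 at 0 uM and 7.35, 7.89, 7.74 and 7.43 at 10 uM, with a log2FC of 4.78 ± 0.39 (adjusted p 2.4e-11). Cks2 was the only gene not called: it was 3.76, 3.67 and 3.75 at 0 uM and 5.41, 5.76, 5.59 and 5.64 at 10 uM, apart without overlap, with a log2FC of 1.87 ± 0.20 (adjusted p 3.2e-09). The interferon list went the other way, with 11 of 12 genes called lower and a median log2FC of -5.94. Other lists lay apart as well. From 0 to 10 uM the macrophage list (most abundant Cd68) went from 5324 to 5485 CPM down to 2897 to 3373 CPM, with 1 of 6 called lower and 5 of 6 at an unadjusted p below 0.05. The endothelial list (most abundant Flt1) had 70.4 to 88.3 CPM at 0 uM and 31.1 to 39.4 CPM at 10 uM. The progenitor list (most abundant Cd34, the 1 of 6 genes tested, which was called higher) had 1.61 to 3.33 CPM and 11.1 to 14.4 CPM, and the astrocyte list (most abundant Aldh1l1, the 1 of 5 tested, which was called lower) 4.76 to 8.67 CPM and 0.290 to 2.75 CPM. The neutrophil list (most abundant S100a8) had 54.1 to 67.6 CPM and 69.4 to 147 CPM. The part of these markers in the result was not tested. In NTC macrophages the same dose gave a smaller difference. limma called 0 of 38, where 0.834% of all genes were called, but 36 of 38 had an unadjusted p (3169 of 11152 genes) and 30 an adjusted p below 0.05, all higher at 10 uM. The median log2FC in NTC was 1.36, against -0.005 for all genes. At a limit of 1 limma called 30 of 38, a count with no share of all genes to set it against. Ccna2 was 2.74, 3.27 and 3.09 in NTC at 0 uM and 4.78, 5.18 and 4.42 at 10 uM, without overlap, with the highest log2FC of the 38 (1.76 ± 0.43, n = 3 and 3, adjusted p 0.0072). In NTC the macrophage list had 5670 to 5793 CPM at 0 uM and 4347 to 4653 CPM at 10 uM, with 0 of 6 called by limma and 3 at an unadjusted p below 0.05, and the endothelial list 51.3 to 55.7 CPM and 22.4 to 32.5 CPM.

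The difference between the lines in their response to 10 uM was tested directly. limma called 28 of 38 above 0 and 0 below, where 7.11% of all genes were called, and all 38 values were above 0 with a median of 2.32. It was largest for Mki67 (3.25 ± 0.51, SE, adjusted p 1.7e-05), Ccna2 (3.19 ± 0.59, adjusted p 0.00012) and Cenpf (3.15 ± 0.56, adjusted p 8.7e-05). It was smallest for Cks2 (0.85 ± 0.29, adjusted p 0.0196), Plk1 (0.99 ± 0.65, adjusted p 0.238) and Cdk1 (1.31 ± 0.36, adjusted p 0.0055). By role limma called 6 of 6 of centromere and kinetochore, 7 of 7 spindle genes and 2 of 2 of chromosome structure, but 1 of 3 kinases and 3 of 6 cyclins and CDK genes. Plk1 shows the difference among members: at 10 uM it was 5.96, 6.09, 7.17 and 6.57 in KO and 6.71, 7.51 and 6.22 in NTC macrophages, which overlap, whereas Mki67 was 8.69 to 9.35 in KO and 8.09, 8.40 and 7.74 in NTC, which do not. At 10 uM itself, KO against NTC, limma called 0 of 38, where 3.14% of all genes were called. At an unadjusted p below 0.05 there were 17 of 38, a smaller share than the 5754 of all 11152 genes, and 13 had an adjusted p below 0.05. The median log2FC was 0.72, against 0.002 for all genes. At a limit of 1 there were 7 of 38 called, again with no share of all genes to set this against. Ccnb2 had the highest log2FC there (1.35 ± 0.43, adjusted p 0.0109): it was 8.19, 8.41, 8.34 and 8.18 in KO and 6.83, 7.57 and 6.38 in NTC macrophages. This comparison shares its libraries with the tests of 10 uM against 0 uM in either line.

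Across the 19 comparisons the 38 genes varied among themselves in size and, in some comparisons, in direction. Of the 38 log2FC, 19 were above 0 and 19 below in BM monocytes against BM progenitors, 21 and 17 in KO against NTC progenitors, and 7 and 31 in ER-Hoxb8 MLCs against ER-Hoxb8 macrophages. Cks2 had small values in several comparisons, with a log2FC of 0.92 in KO against NTC macrophages, 1.87 at 10 uM in KO and 0.76 in ER-Hoxb8 MLCs against microglia. Racgap1 stood apart in macrophages of the sgRNA 1 experiment (0.20) yet went with the others at 10 uM in KO (3.81). Cenpa was the only member below 0 in KO against NTC macrophages, and it fell by 2.74 in NTC cells and fell by 3.18 in KO cells on differentiation. Kif4 and Plk1, at the other end, had the widest ranges between groups of a set. Plk1 had the lowest log2FC of the 38 in NTC macrophages against progenitors (-7.38), in ER-Hoxb8 MLCs against ER-Hoxb8 macrophages (-3.34) and in sgRNA 2 macrophages against progenitors (-3.72). Mki67 had the highest in ER-Hoxb8 MLCs against microglia (4.51) and the lowest in KO against NTC at 0 uM (-2.29).

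**Figure D5:**
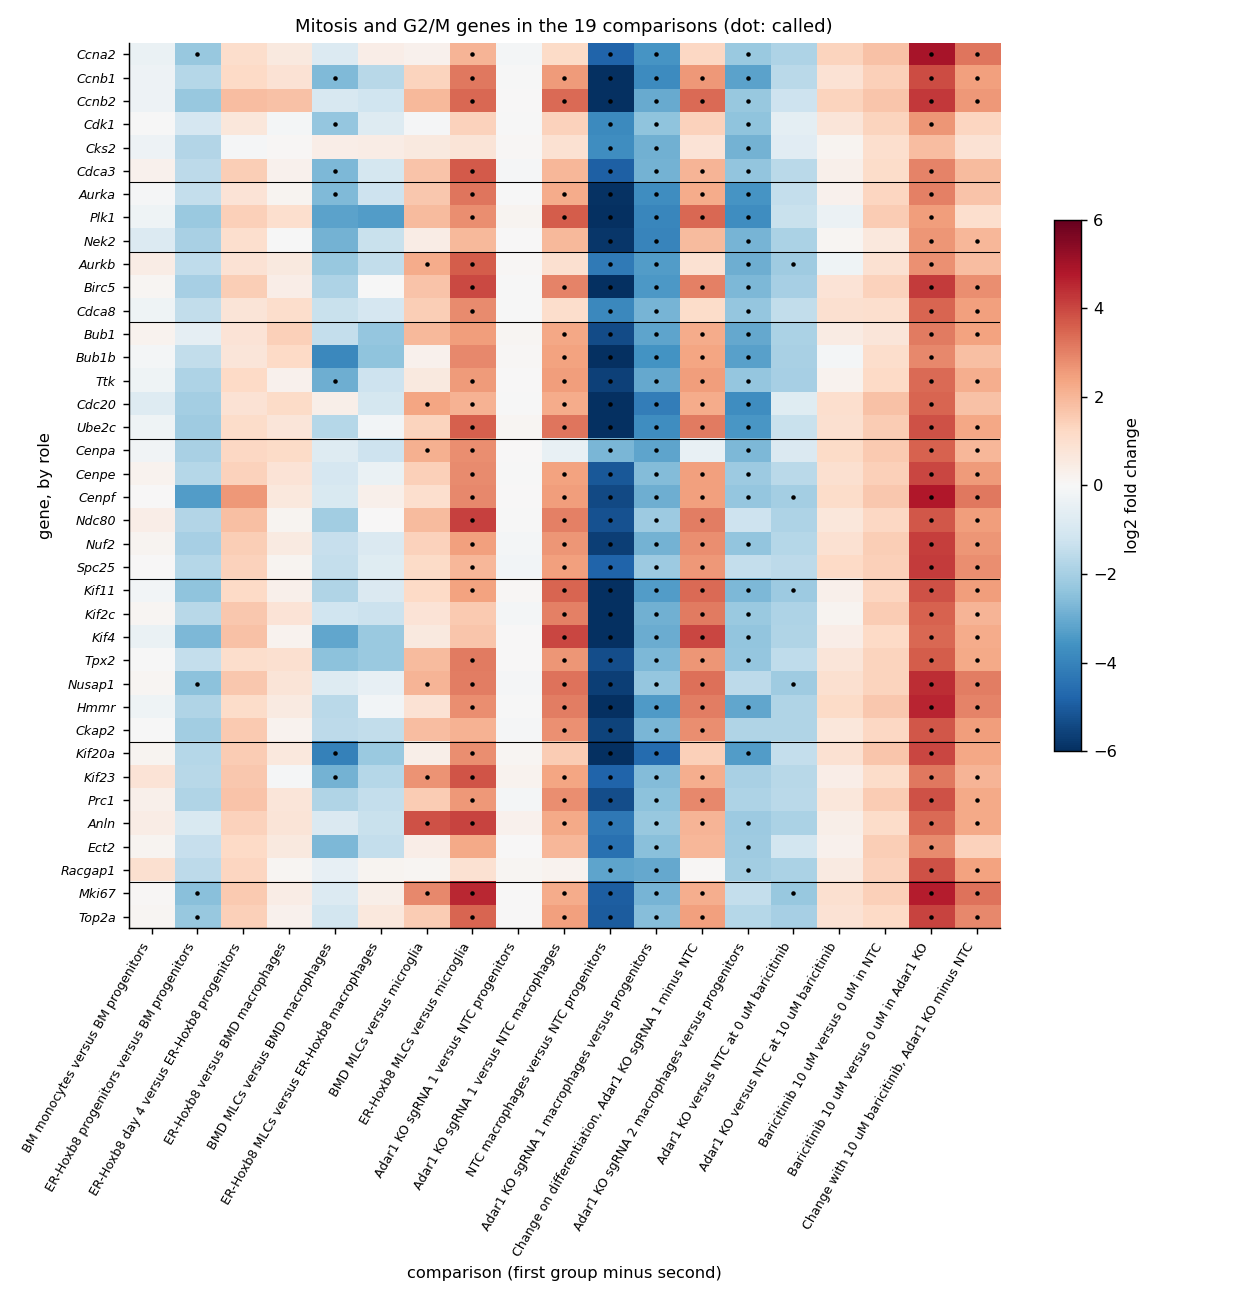
Log2 fold change of the 38 genes (top to bottom, by role) in the 19 comparisons (left to right), in color, with a dot where limma called the gene. Differentiation lowers all 38 in the sgRNA 1 and NTC lines, all 38 are above 0 at 10 uM baricitinib in KO macrophages, 37 of them with a dot, and the progenitor comparison of KO and NTC has no dot.

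Other genes of the cell cycle, from lists that hold none of the 38, were counted in the same fits. Of 57 further mitosis genes, limma called 49 lower and 0 higher in NTC macrophages against progenitors, 45 lower and 0 higher in KO macrophages against progenitors, and 28 lower and 0 higher with sgRNA 2. It called 17 higher and 0 lower in KO against NTC macrophages, 10 lower and 0 higher in KO against NTC at 0 uM, and 40 higher and 0 lower at 10 uM in KO. Of 39 genes of S phase, limma called 34 lower and 0 higher in NTC macrophages against progenitors, 10 higher and 0 lower in KO against NTC macrophages, 8 lower and 0 higher in KO against NTC at 0 uM, and 23 higher and 0 lower at 10 uM in KO. Mcm2, of the replicative helicase, was not called at 10 uM in KO (log2FC -0.48, adjusted p 0.0991). The 14 core subunits of APC/C, which are made throughout the cycle, were called in 0 of 14 by limma in these 6 comparisons, with medians from -0.85 to 0.45. At an unadjusted p below 0.05 there were 13 of 14 in NTC, 11 in KO and 12 in sgRNA 2 macrophages against progenitors, 4 in KO against NTC macrophages, 3 in KO against NTC at 0 uM and 12 at 10 uM in KO. Of all genes, 8135 and 8103 of 11008, 8802 of 10698, 3938 of 11008, and 4091 and 7660 of 11152 passed this in the same order. Its partners Cdc20 and Ube2c, members of the 38, were called in KO against NTC macrophages and at 10 uM in KO. Against microglia, ER-Hoxb8 MLCs had 26 of 57 mitosis genes and 18 of 39 S phase genes higher, and 0 lower of either.

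Of 21 genes of DREAM and its opponents, 20 were tested in NTC macrophages against progenitors, and limma called 7 lower and 2 higher. The activators Foxm1 and Mybl2 fell (adjusted p 5.4e-09 and 9.6e-09), Foxm1 by a log2FC of -4.58, while E2f1 and Rb1 rose, with log2FC of 2.18 (adjusted p 7.7e-08) and 3.59 (adjusted p 1.2e-06). Foxm1 was higher in KO than in NTC macrophages (log2FC 2.13, adjusted p 3.0e-05), the only call of 20 tested in that comparison. At 10 uM against 0 uM in KO, Foxm1 and Mybl2 were higher without being called: the log2FC of Foxm1 was 1.91 (adjusted p 0.00067), and that of Mybl2 was just under the limit and rounds to 2.00 (adjusted p 1.8e-05). E2f3 and Rbl1, named after their values were seen, were called higher there and E2f1 lower, the last with a log2FC of -2.02 (adjusted p 4.2e-13). Among 13 tested regulators of G1, Ccnd1 and Ccnd2, the D cyclins that M-CSF induces, were called higher in KO than in NTC macrophages, with log2FC of 4.55 (adjusted p 8.4e-07) and 3.81 (adjusted p 2.3e-08), and 0 lower. At 0 uM in the baricitinib experiment limma called 0 of 13 G1 regulators and 0 of 21 DREAM genes in KO against NTC, with 7 and 10 at an unadjusted p below 0.05 (4091 of 11152 genes). Foxm1 and Mybl2 were lower in KO there without being called, with log2FC of -1.83 (adjusted p 0.0070) and -1.58 (adjusted p 0.0028). In ER-Hoxb8 progenitors against BM progenitors the inhibitors Cdkn2a and Cdkn1a were called higher, and both were also called with ER-Hoxb8 progenitor replicate 3 alone in the group, an alternative chosen after the data were seen. The log2FC of Cdkn1a was 3.85, and 2.32 in that alternative. Cdkn2a was 5.57, 3.75 and 3.27 in ER-Hoxb8 progenitors and -3.81, -3.22 and -4.34 in BM progenitors, at or near the lowest value of the set (-4.34), so the size of its difference depends on the prior count and is not given. At 10 uM in KO, the inhibitors Cdkn1a and Cdkn2c were called higher (log2FC 2.24 and 3.70) while the 38 rose. Cdkn2a and Cdkn1b were lower there without being called, with log2FC of -1.97 (adjusted p 2.1e-07) and -0.87 (adjusted p 0.0040).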

How the data were processed

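RNA of 92 libraries in 25 groups was measured by bulk sequencing. Per the labels, the authors quantified reads with kallisto 0.46.0 on GRCm39 and deposited log2 CPM after TMM scaling in edgeR. The deposited log2 values fall into 6 sets that share a lowest value, and each set was fitted alone. Of 29957 entries, 1 without a name was dropped (0.00226 to 0.0585% of a library). CPM were rebuilt by subtracting the lowest value (a prior count of 2 was presumed), and depth was read from the steps of low values. A gene entered a fit if 3 libraries (6 in the set of 27) exceeded a CPM of 1. limma 3.58.1 (R 4.3.3) estimated group means, with trended empirical Bayes and Benjamini-Hochberg adjustment over all genes tested. Called genes had log2FC of 2 or more in size, up or down, together with an adjusted p under 0.05. The fit was checked on simulated data. All 19 comparisons are reported. Tables and figures used Python 3.11.15, numpy 2.4.6, pandas 2.3.3 and matplotlib 3.10.9.

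The members and the lists of other mitosis, APC/C, S phase, G1, DREAM, interferon and marker genes were chosen with earlier results of these data known. Sgo2a and Lin54 were not found among the gene names. Any of the 38 genes could be named, with the 3 highest and 3 lowest log2FC of each comparison first. E2f3 and Rbl1 were named after their values were seen. Alternatives were no filter, log2 of CPM plus 1, quantile normalization, a limit of 1, a replicate block, only the groups of a comparison, leaving out each library, subsets of MLC and microglia libraries, and NTC macrophage replicate 2 put back.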

Additional observations from a re-analysis of the deposited data

Results flagged for a closer look

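The change on differentiation differed between the Adar1 KO sgRNA 1 and NTC lines in a direct test. It called 28 of the 38 mitotic genes, all with a smaller fall in the KO line, where 4.19% of all genes were called. The response to 10 uM baricitinib also differed between the lines in a direct test. That test called 28 of 38, all with the larger increase in KO macrophages, where 7.11% of all genes were called.

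KO minus NTC macrophages, in the mean of the 38 genes, was 2.305 in the experiment without baricitinib and -1.643 at 0 uM in the baricitinib experiment. All KO libraries lay above all NTC libraries in the former and below them in the latter. The difference between the experiments was not tested.

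Microglia replicate 8 lay apart from the other 8 microglia libraries in the mean of 2 lists. Its mean over the S phase list was 0.8074 and its mean over the interferon list was 0.4236. Dixon's test was applied to 7 groups of 4 to 10 libraries and 3 measures (21 tests in all), and chance gives about 1 such library in 20 groups. The mean of the 38 mitotic genes in this library was -0.10, the lowest of the microglia, but its gap to the others did not pass. Without this library, 4 of 38 in place of 7 of 38 genes were called in BMD MLCs against microglia.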

How the results depend on the processing

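The number of the 38 genes called was recomputed under each alternative for all 19 comparisons. It stayed within 1.5 times the reported count under every alternative in 12 comparisons, among them those of macrophages against progenitors, KO against NTC macrophages, 10 uM in KO, both direct tests of a difference between lines, and ER-Hoxb8 MLCs against microglia. With each library left out in turn (71 fits), those counts ranged from 25 to 30 in KO against NTC macrophages, from 24 to 29 and from 24 to 33 in the direct tests, from 23 to 29 in ER-Hoxb8 MLCs against microglia, from 29 to 30 with sgRNA 2 and stood at 37 for 10 uM in KO. No count of called genes changed direction. The median of the 38 genes did so in ER-Hoxb8 day 4 against progenitors, from 1.31 to -0.42 without ER-Hoxb8 progenitor libraries 1 and 2 (chosen after seeing the data), and in ER-Hoxb8 against BMD macrophages, from 0.60 to -0.38 without BMD macrophage replicate 2. It also crossed 0 by small amounts without single libraries in BM monocytes against BM progenitors and in KO against NTC progenitors, where it was near 0.

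Counts moved elsewhere, and the cause was not tested except where the limit itself changed. ER-Hoxb8 against BM progenitors (4 reported) gave 1 with no filter, 7 after quantile normalization, 0 with only the groups of the comparison, 0 without ER-Hoxb8 progenitor libraries 1 and 2 (chosen after seeing the data), and 0 to 34 with single libraries left out. BMD MLCs against BMD macrophages (7) gave 3 with no filter, 12 on log2 of CPM plus 1 and 0 to 16 with single libraries left out. ER-Hoxb8 MLCs against ER-Hoxb8 macrophages (0) gave 1 on log2 of CPM plus 1, 1 with a replicate block, 1 with only WTHox libraries and 0 to 3 with single libraries left out. BMD MLCs against microglia (7) gave 2 on log2 of CPM plus 1, 3 with a replicate block, 3 without both YSWT libraries and 4 to 9 with single libraries left out. At a log2FC limit of 1, KO against NTC gave 33 at 0 uM (5) and 7 at 10 uM (0), and 10 uM in NTC gave 30 (0). Shares of all genes at that limit are not given, so these counts show only that the limit matters. KO against NTC at 0 uM gave 2 to 15 with single libraries left out.

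Replicates with the same number resembled each other in ER-Hoxb8 progenitors and day 4 (r from 0.23 to 0.43 across genes) and in KO and NTC progenitors (r from 0.16 to 0.35). With a replicate block both comparisons gave 0 of 38 in limma, as without it. Of single named genes under the alternatives, 2594 values kept their side of the threshold, 101 lost a call and 25 gained one, and of medians over the 38 genes 17 moved by more than the spread and 261 did not. Group levels moved in 11 cases and did not in 39.

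Depth limits the low end: a count of 0 allows a level of up to -0.66 in the shallowest library. In microglia replicate 8, 16 of 38 genes were at 3 counts or fewer, so lower levels there were not detectable. NTC macrophages entered the fit with 2 libraries. Groups of 3 libraries with a wide spread (ER-Hoxb8 progenitors and both kinds of macrophages) give wide standard errors, so a count of 0 there does not show equal levels. Levels of different sets cannot be compared. Promoter windows come from GRCm38.p6, while reads were quantified on GRCm39.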
